A study of Mus musculus with 2 samples.

Results

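Deep intronic EGR1 peaks are the EGR1 binding sites in mouse frontal cortex whose centre lay more than 10 kb from every transcription start site (TSS) of GENCODE release M21 and inside an intron of a protein-coding gene. Of the 12014 peaks deposited, 11938 lay on assembled chromosomes and 1149 of them met this rule. They fell in 833 genes. EGR1 ChIP-seq, in which an antibody pulls down chromatin bound by EGR1 for sequencing, was carried out on frontal cortices of male C57BL6N/129SvEv F1 hybrid mice aged 6 weeks. Cortices of several mice were pooled for each ChIP, and the deposited list merges 2 ChIP replicates. The only measurement is the irreproducible discovery rate (IDR) of each peak, which takes small values for peaks that both replicates rank similarly near the top. Without read counts the depth behind a peak is unknown, and a peak list cannot show whether the tissue carried the markers of its label. The input DNA library is not analysed here.

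EGR1 is an immediate-early transcription factor that neurons make within minutes of activity, and it is widely used to mark active cells. Its zinc fingers read a G-rich site, GCGTGGGCG or GCGGGGGCG, which holds CpG dinucleotides and is frequent in CpG-island promoters. Introns far from a promoter are poor in CpG, since methylated cytosines there mutate to thymine, and many of the enhancers that neurons use lie in them. The peaks were therefore described by their sequence, by their place in the gene and by the genes that hold them, beside 3 other classes. These were 1241 distal intergenic peaks (over 10 kb from a TSS and outside protein-coding genes), 989 proximal intronic peaks (2 to 10 kb from a TSS) and 6157 promoter peaks (within 500 bp of a TSS).

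The sequences below are 11 of the 15 deep intronic peaks with the lowest IDR, printed as examples of the peaks ranked highest by reproducibility. The Galnt9 peak, in which the ChIP-qPCR amplicon of that gene lies (chr5:110562903-110562997), is printed too. They are printed from the plus strand of RefSeq's GRCm38.p6 assembly (mm10), with positions counted from 1. Capitals mark the EGR1 motif or GTGGGNG, the last 7 bases of GCGTGGGCG with any base N before the final G, on either strand. Each peak printed holds GTGGGNG, which not all of the 15 do. On the complementary strand GTGGGTG reads CACCCAC.
Katnal1 chr5:148914227-148914515: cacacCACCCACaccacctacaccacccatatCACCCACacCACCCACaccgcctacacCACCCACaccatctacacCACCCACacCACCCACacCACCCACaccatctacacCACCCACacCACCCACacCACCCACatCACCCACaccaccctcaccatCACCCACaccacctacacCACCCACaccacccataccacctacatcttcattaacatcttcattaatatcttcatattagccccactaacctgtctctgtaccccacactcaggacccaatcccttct
Slc8a2 chr7:16146623-16146860: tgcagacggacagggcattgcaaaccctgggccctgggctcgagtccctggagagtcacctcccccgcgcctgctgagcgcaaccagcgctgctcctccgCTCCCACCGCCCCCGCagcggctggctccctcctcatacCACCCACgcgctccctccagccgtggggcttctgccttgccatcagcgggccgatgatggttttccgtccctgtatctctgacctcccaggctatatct
Kcnq3 chr15:66249743-66249932: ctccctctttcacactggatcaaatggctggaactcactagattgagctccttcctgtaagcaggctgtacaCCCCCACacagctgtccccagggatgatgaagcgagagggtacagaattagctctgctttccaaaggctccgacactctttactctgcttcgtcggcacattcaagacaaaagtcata
Crhr1 chr11:104158075-104158239: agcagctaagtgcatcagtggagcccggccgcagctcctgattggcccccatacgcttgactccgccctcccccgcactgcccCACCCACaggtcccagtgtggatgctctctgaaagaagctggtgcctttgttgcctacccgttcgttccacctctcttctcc
Tmem131 chr1:36797616-36797791: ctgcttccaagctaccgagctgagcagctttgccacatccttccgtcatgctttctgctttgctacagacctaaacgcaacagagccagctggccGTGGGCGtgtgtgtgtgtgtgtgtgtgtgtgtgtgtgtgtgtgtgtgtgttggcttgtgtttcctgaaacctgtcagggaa
Slc8a2 chr7:16149318-16149563: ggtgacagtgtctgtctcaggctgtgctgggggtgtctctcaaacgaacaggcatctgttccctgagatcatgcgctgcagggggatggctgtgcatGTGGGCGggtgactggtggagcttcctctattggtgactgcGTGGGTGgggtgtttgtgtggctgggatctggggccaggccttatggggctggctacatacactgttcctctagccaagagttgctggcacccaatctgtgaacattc
Iqsec3 chr6:121463026-121463253: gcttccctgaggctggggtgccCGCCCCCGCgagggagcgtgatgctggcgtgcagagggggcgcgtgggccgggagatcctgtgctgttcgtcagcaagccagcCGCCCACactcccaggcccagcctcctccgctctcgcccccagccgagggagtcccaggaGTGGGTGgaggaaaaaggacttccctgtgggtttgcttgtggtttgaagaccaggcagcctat
Tacc1 chr8:25225831-25225987: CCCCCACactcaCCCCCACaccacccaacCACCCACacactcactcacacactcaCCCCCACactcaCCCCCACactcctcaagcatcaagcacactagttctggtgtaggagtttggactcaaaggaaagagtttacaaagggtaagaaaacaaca
Slc24a3 chr2:145383529-145383659: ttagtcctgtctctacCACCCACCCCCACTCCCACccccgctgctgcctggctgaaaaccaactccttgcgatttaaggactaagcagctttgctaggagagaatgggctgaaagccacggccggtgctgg
Sec14l5 chr16:5166006-5166156: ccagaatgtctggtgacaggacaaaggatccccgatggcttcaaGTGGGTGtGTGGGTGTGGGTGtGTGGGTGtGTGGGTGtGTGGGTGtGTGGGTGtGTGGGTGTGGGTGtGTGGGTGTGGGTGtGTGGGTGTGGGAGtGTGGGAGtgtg
Myo16 chr8:10202208-10202377: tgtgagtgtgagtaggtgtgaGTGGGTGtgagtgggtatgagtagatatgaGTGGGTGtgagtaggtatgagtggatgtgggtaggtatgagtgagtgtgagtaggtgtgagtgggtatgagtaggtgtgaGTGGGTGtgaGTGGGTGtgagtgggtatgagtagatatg
Galnt9 chr5:110562793-110563042: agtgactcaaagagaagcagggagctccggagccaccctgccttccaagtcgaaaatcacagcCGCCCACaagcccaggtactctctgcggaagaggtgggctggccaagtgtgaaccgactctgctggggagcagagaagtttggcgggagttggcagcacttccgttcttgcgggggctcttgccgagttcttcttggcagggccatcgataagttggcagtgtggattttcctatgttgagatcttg

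Of the peaks shown, the first Slc8a2 peak and the Iqsec3 peak hold the EGR1 motif, which in both is GCGGGGGCG read on the complementary strand. Slc8a2 encodes a sodium-calcium exchanger and Iqsec3 an exchange factor for ARF proteins at inhibitory synapses. The Katnal1 peak holds 13 copies of GTGGGTG, the Sec14l5 peak 12 and the Myo16 peak 4, all within short repeated units and without the EGR1 motif. The Tacc1 and Myo16 peaks hold 0 CpGs. The Kcnq3 peak, in a potassium channel gene, holds 1 copy of GTGGGNG. The Crhr1 peak, in the gene of the receptor for corticotropin-releasing hormone, holds 1 copy of GTGGGTG.

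An exact match to the canonical EGR1 motif was rare in deep intronic peaks. It was found in 61 of the 1149 deep intronic peaks, or 5.31% (95% Wilson interval 4.16 to 6.76%), against 16.6% of all peaks. The share was 6.20% in distal intergenic peaks (odds ratio 0.848, 95% interval 0.60 to 1.20, adjusted p = 0.742, Fisher's exact test, two-sided) and 5.76% in proximal intronic peaks (odds ratio 0.917, 0.632 to 1.33, adjusted p = 0.979). Neither difference passed the test, and the intervals leave room for a difference of moderate size either way. In promoter peaks the share was 23.1%, which was higher (odds ratio of deep intronic to promoter peaks 0.186, 0.143 to 0.243, adjusted p = 4.27e-53, exact test). Promoter peaks had a median GC content of 66.7%, against 51.6% in deep intronic peaks. The part of base composition in this contrast was not tested. The form GCGTGGGCG was found in 31 deep intronic peaks and GCGGGGGCG in 31, whereas in promoter peaks they were found in 5.23% and 18.2%. With 1 base different allowed, a site was found in 47.6% of deep intronic, 83.9% of promoter and 69.8% of all peaks. All p-values were adjusted by the Benjamini-Hochberg procedure over 39 Fisher tests. Because both replicates are merged, they measure the spread over peaks and not between mice, and intervals cover counting error only.

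Most deep intronic peaks held a shorter and often CpG-free relative of the motif. The 7-base core GTGGGCG was found in 22.4% of them (20.1 to 24.9%), and GTGGGTG, which differs from it by C6T counted from the 5′ end, in 43.9% (41.0 to 46.7%). GTGGGAG (C6A) was found in 23.2% and GTGGGGG (C6G) in 20.0%. Any of these, written GTGGGNG, was found in 946 peaks, or 82.3% (80.0 to 84.4%), against 68.7% of all peaks. In 904 of them the peak had no EGR1 motif. The words were chosen after the sequences of the peaks were seen, so their shares are given without a test.

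The same words were much less frequent beside the peaks. In 2297 windows of the same width 5 kb to either side, GTGGGTG was found in 6.57%, GTGGGCG in 0.958%, GTGGGNG in 19.1% and the EGR1 motif in 1 window. With 1 base different allowed, the motif was found in 2.70% of the windows. These windows had a lower median GC content (45.8%) than the peaks (51.6%), and its part in the difference was not tested. Of the 12 words of 8 letters with the largest excess in the peaks over the windows, 11 held GTGGG on one of the strands and 2 held a CpG. The first of them, GTGGGTGG, occurred in 24.8% of peaks but 2.35% of windows.

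The T form was found at like shares in the 3 classes away from promoters and at a lower share in promoter peaks. GTGGGTG was found in 41.2% of distal intergenic peaks and 43.1% of proximal intronic peaks, but in 13.8% of promoter peaks. GTGGGCG went the other way, with 20.1%, 20.8% and 30.6%. Peaks with GTGGGTG that had neither GTGGGCG nor the EGR1 motif made up 38.5% of the deep intronic peaks and 9.49% of the promoter peaks. The part of base composition, which differs between these classes, was not tested for the words either.

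**Figure D1:**
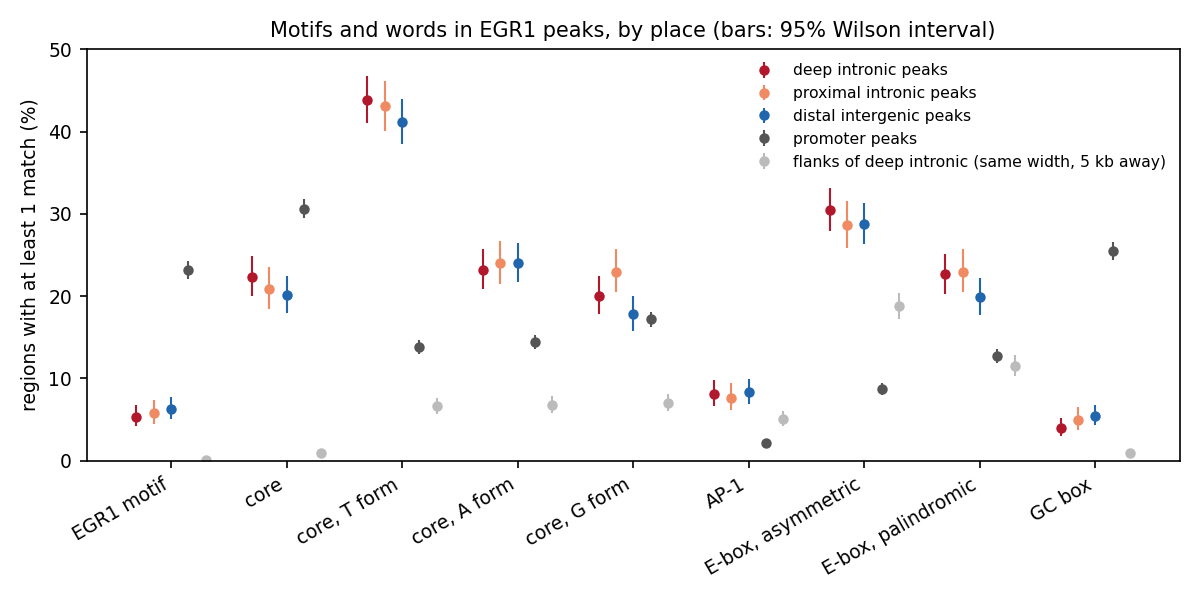
Share of regions (y axis, percent) with at least 1 match to each motif or word (x axis), for the 4 classes of EGR1 peaks and for windows 5 kb beside the deep intronic peaks. Bars are 95% Wilson intervals. The core is GTGGGCG and its T, A and G forms differ in the base before the final G, and the asymmetric and palindromic E-boxes are CAGATG and CAGCTG. The T form reaches 43.9% in deep intronic peaks, 13.8% in promoter peaks and 6.57% in the windows.

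The words lay at the centres of the peaks. In the 100 bp around the centre of deep intronic peaks there were 266.3 GTGGGTG sites per 1000 peaks in each 50 bp, against 16.3 in the sequence 500 to 1000 bp away, a ratio of 16.4. For GTGGGCG the values were 104.4 and 2.09, and for the EGR1 motif 25.7 and 0.0870, the latter from 2 sites. At promoter peaks GTGGGTG stood at 53.2 at the centre and 15.2 away from it, a ratio of 3.51. AP-1, the motif of FOS and JUN dimers, reached 20.5 at the centre of deep intronic peaks against 11 away from it.

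**Figure D2:**
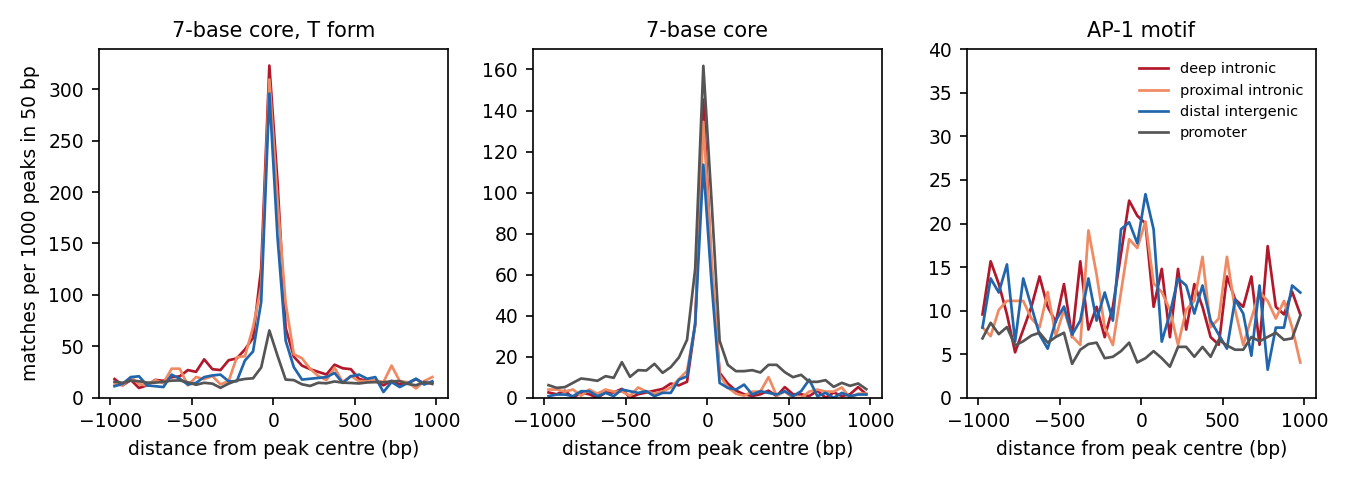
Matches per 1000 peaks in bins of 50 bp (y axis) by distance from the peak centre in bp (x axis), for GTGGGTG (left), GTGGGCG (middle) and the AP-1 motif (right). The scales of the y axes differ. GTGGGTG peaks sharply at the centres of the 3 classes away from promoters and much less at promoter peaks, while AP-1 stands at 20.5 at the centre of deep intronic peaks and 11 away from it, a ratio of 1.87.

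Copies per peak varied. No GTGGGNG was found in 203 deep intronic peaks, 1 copy in 542, 2 copies in 262, 3 to 4 in 95 and 5 or more in 47, up to 23. Of the 47 with 5 or more, 18 lay for 50% or more of their length in sequence that the assembly masks as repeats. Their median IDR was 0.000535, against 0.00144 for peaks with 1 to 4 copies and 0.00133 for peaks with 0. Arrays of this kind made up 4.09% of deep intronic, 2.26% of distal intergenic, 3.03% of proximal intronic and 0.406% of promoter peaks. Among the 15 peaks of lowest IDR, those of Mettl7a1, Hs3st4, Katnal1 and Sec14l5 each held 12 or 13 copies of GTGGGTG at an IDR of 6.79e-08 or less, and that of Tacc1 held 5 copies of GTGGGNG.

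Motifs of other factors that act at neuronal enhancers were counted next. AP-1, searched as TGANTCA with C or G at N, was found in 93 deep intronic peaks, or 8.09% (6.65 to 9.81%), against 4.72% of all peaks and 5.05% of the windows beside them. Distal intergenic peaks held it in 8.30% (odds ratio 0.973, 0.726 to 1.3, adjusted p = 1.00, Fisher's exact test) and proximal intronic peaks in 7.58% (odds ratio 1.07, 0.782 to 1.47, adjusted p = 0.979). It was less frequent in promoter peaks, at 2.16% (odds ratio of deep intronic to promoter peaks 3.99, 3.04 to 5.24, adjusted p = 6.31e-20, exact test).

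E-boxes, read by basic helix-loop-helix factors such as NEUROD proteins, showed the same contrast. The median GC content was 51.6% in deep intronic and 66.7% in promoter peaks. Its part in the contrasts of AP-1, the E-boxes and the motifs below was not tested. CAGATG was found in 30.5% of deep intronic peaks and 8.64% of promoter peaks (odds ratio 4.63, 3.97 to 5.40, adjusted p = 2.38e-76, Fisher's exact test), and in 18.8% of the windows. CAGCTG was found in 22.6% and 12.7% (odds ratio 2.01, 1.72 to 2.36, adjusted p = 2.60e-16, exact test), and in 11.5% of the windows. The windows held CAGATG and AP-1 more often than promoter peaks did, and CAGCTG less often. The GC box GGGGCGGGG, read by SP factors and able to overlap an EGR1 site, was found in 3.92% of deep intronic and 25.5% of promoter peaks (odds ratio 0.119, 0.0880 to 0.161, adjusted p = 7.89e-76, exact test). The cAMP response element TGACGTCA was found in 3 deep intronic peaks and in 2.16% of promoter peaks (odds ratio 0.119, 0.0377 to 0.373, adjusted p = 1.35e-06, exact test). MEF2 sites were found in 9 deep intronic peaks, or 0.783% (0.413 to 1.48%), and in 0.211% of promoter peaks (adjusted p = 0.0144, exact test). The windows held MEF2 sites in 0.435% (0.237 to 0.800%), an interval that overlaps that of the peaks. They held the cAMP response element in 0.218%, against 0.261% of the peaks, and the GC box in 0.914%. SRF sites were found in 1.13% of both peaks and windows. SRF, CTCF, RFX and NFI sites, in 13, 26, 10 and 0 deep intronic peaks, did not differ from promoter peaks past the threshold, the lowest adjusted p being 0.678. The upper Wilson limit for NFI was 0.333%. Against distal intergenic and proximal intronic peaks, none of these 9 other motifs passed the test, with adjusted p-values of 0.298 or more.

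Deep intronic peaks had the lowest share of CpG-rich sequence among the 4 classes. Their median CpG ratio (observed CpGs over those expected from C and G content) was 0.265, with quartiles of 0.168 and 0.377, against 0.297 in distal intergenic, 0.279 in proximal intronic and 0.792 in promoter peaks. The median peak held 4 CpGs, and 40 peaks held 0. Only 37, or 3.22% (2.35 to 4.41%), were CpG-rich, with a ratio of 0.6 or more and a GC content of 50% or more, against 48.8% of all peaks. The share was lower than in distal intergenic peaks, at 8.78% (odds ratio 0.346, 0.236 to 0.506, adjusted p = 4.77e-08, Fisher's exact test), and lower than in proximal intronic peaks, at 6.47% (odds ratio 0.481, 0.318 to 0.728, adjusted p = 0.00183). The second difference was lost when 20 kb was required (3.46% against 5.30%, adjusted p = 0.275, exact test). Of promoter peaks, 79.4% were CpG-rich.

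Poor as they were, the peaks stood above their surroundings. The CpG ratio was higher in the peak than in the mean of its windows 5 kb away for 779 of 1149 peaks, and the GC content for 944. The windows had a median ratio of 0.175, and 15.5% of them held no CpG, against 3.48% of the peaks. The EGR1 motif was found in 11 of the 37 CpG-rich deep intronic peaks (29.7%) and in 50 of the 1112 others (4.50%). The highest ratios belonged to Gm44511 (1.22), Prkce (1.10), which encodes protein kinase C epsilon, and Filip1l (0.989). The Prkce and Gm44511 peaks lay 222 and 443.5 bp from a TSS that RefSeq lists and GENCODE M21 does not. Of the 1149 peaks, 22 lay within 500 bp of a RefSeq TSS and 184 within 10 kb, mostly of predicted transcripts, since 12 lay within 10 kb of a curated one.

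**Figure D3:**
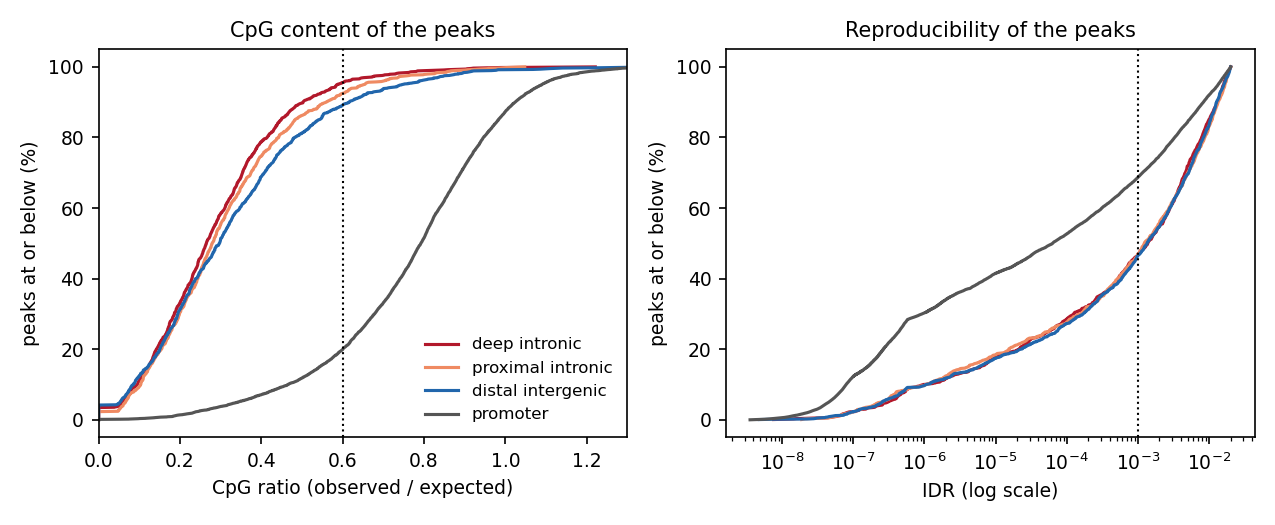
Cumulative share of peaks (y axis, percent) by CpG ratio (left) and by IDR on a log scale (right) for the 4 classes. Dotted lines mark a ratio of 0.6 and an IDR of 0.001. Deep intronic peaks run highest on the left, with a median ratio of 0.265, and on the right lie close to the other classes away from promoters.

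The IDR of deep intronic peaks was higher than that of promoter peaks, and no difference from the other classes away from promoters passed the test. The median was 0.00136, with quartiles of 5.67e-05 and 0.00587 and a range from 7.68e-09 to 0.02. An IDR of 0.001 or less was reached by 539 peaks, or 46.9% (44.0 to 49.8%), against 59.5% of all peaks. The share was 46.6% in distal intergenic peaks (odds ratio 1.01, 0.863 to 1.19, adjusted p = 1.00, Fisher's exact test) and 47.0% in proximal intronic peaks (odds ratio 0.996, 0.840 to 1.18, adjusted p = 1.00). In promoter peaks it was 68.7%, which was higher (odds ratio 0.403, 0.354 to 0.457, adjusted p = 3.25e-43, exact test).

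Counted as at least 1 copy in a peak, the EGR1 motif was concentrated among the deep intronic peaks of lowest IDR, and GTGGGTG was not. Split into 4 parts of equal size from the lowest IDR up, the peaks held the motif in 10.8%, 2.79%, 4.53% and 3.14%, with intervals of 7.69 to 14.9% for the first and 1.42 to 5.40% for the second. GTGGGCG was found in 29.5% of the first of them and in 19.5 to 20.2% of the others. GTGGGTG was found in 43.8%, 43.2%, 42.5% and 46.0%. The median GC content was 53.0% in the first of them and 50.6 to 51.1% in the others.

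Deep introns held peaks at a higher density than the intergenic sequence at the same distance from TSSs. The sequence that meets the rule measured 512.3 Mb, 19.4% of the assembled bases, and held 2.24 peaks per Mb (95% exact Poisson interval 2.11 to 2.38). Distal intergenic sequence held 1.11 per Mb (1.05 to 1.17) and proximal intronic sequence 3.32 (3.11 to 3.53). The GC content of the 3 kinds of sequence was 41.5%, 40.3% and 43.1%. The assembly masks 29.8% of deep intronic and 42.8% of distal intergenic sequence as repeats, while 40 of the deep intronic peaks were masked for 50% or more of their length. The part of GC content, repeats and mapping in the densities was not tested.

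Within deep introns the density was lower at greater distance from the nearest TSS. It was 2.81 per Mb at 10 to 20 kb (484 peaks, 2.57 to 3.07), 2.35 at 20 to 50 kb (450 peaks), 1.79 at 50 to 100 kb (166 peaks) and 0.883 beyond 100 kb (49 peaks, 0.653 to 1.17). In the same order, GTGGGNG was found in 81.6%, 83.1%, 82.5% and 81.6% of the peaks, and the EGR1 motif in 5.37%, 4.89%, 7.23% and 2.04%. AP-1 was found in 9.09%, 7.33%, 9.04% and 2.04%, and the last share of both motifs rests on 1 of 49 peaks. The median GC content was 52.3% in the nearest peaks and 48.1% in the farthest. The median distance was 23345 bp. The most remote peaks lay in Agbl4 (275056 bp from a TSS), Npas3 (252856 bp) and Dpyd (227367 bp), with IDRs of 0.0142, 0.0133 and 0.00782.

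At the limit of the rule, the nearest peaks inside were those of Gnao1 and Sgsm1, both at 10010 bp, and Hs3st4 at 10037 bp. Their IDRs were 0.00146, 0.00242 and 1.07e-08. The nearest intronic peaks outside were those of Slc24a4 at 9999 bp, Atg13 at 9979 bp and Gucy2g at 9977 bp, with IDRs of 4.19e-06, 0.00591 and 0.00173. Each of these 6 peaks held GTGGGNG and none held the EGR1 motif. The shares were 82.3% and 5.31% over all deep intronic peaks, and 83.0% and 5.76% over all proximal intronic peaks.

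First introns, which often carry enhancers of their own gene, held 317 of the peaks, or 27.6%. Counted on the protein-coding transcript of greatest span, their density was 2.78 per Mb (2.48 to 3.11). It was 2.05 (1.75 to 2.38) in intron 2 and 1.81 (1.62 to 2.02) in intron 6 or later. In introns 3, 4 and 5 it was 2.48 (2.10 to 2.92), 2.26 (1.82 to 2.78) and 2.61 (2.08 to 3.24). These intervals overlap that of intron 1. The part of distance to the TSS in these densities was not tested. The introns that held a peak had a median length of 45851 bp. The peaks lay a median of 8985 bp from the nearest protein-coding exon, 40 of them within 200 bp, and 47.0% lay in the 5′ part of the gene up to its midpoint.

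**Figure D4:**
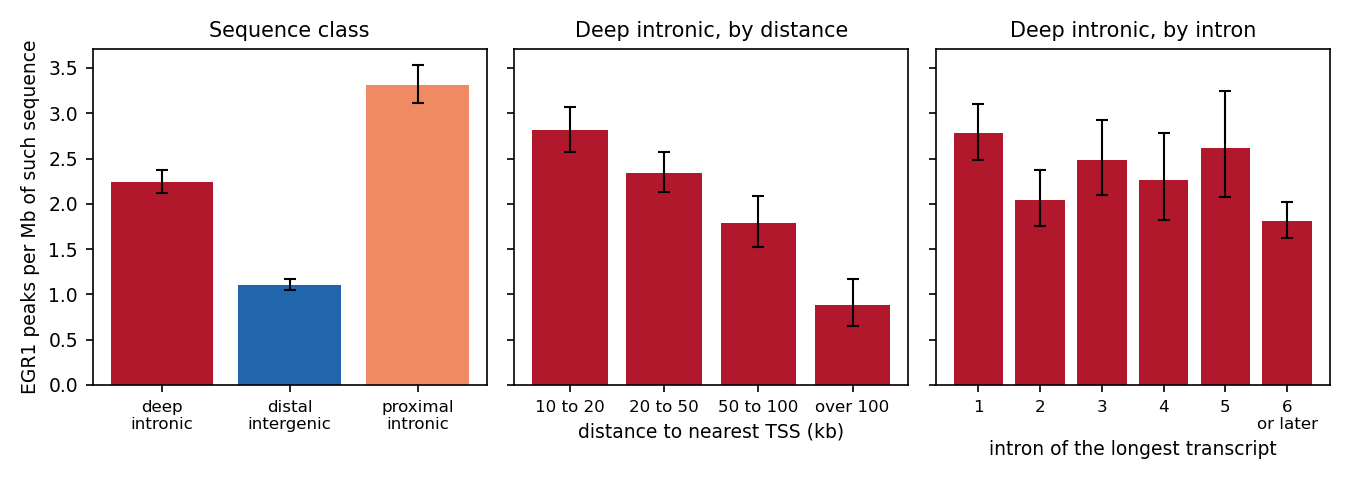
EGR1 peaks per Mb of sequence (y axis) in 3 classes of sequence (left), and deep intronic peaks by distance to the nearest TSS (middle) and by intron of the longest protein-coding transcript (right). Bars start at 0 and carry 95% exact Poisson intervals. Density runs from 2.81 per Mb at 10 to 20 kb to 0.883 beyond 100 kb.

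Most peaks stood alone. The next EGR1 peak of any class lay a median of 42635 bp away, and 178 of the peaks, or 15.5%, had another within 10 kb. The paired peaks of Slc8a2 lay 2699 bp apart in the fourth intron, 16394 and 19093 bp from the TSS, with IDRs of 2.21e-08 and 5.49e-08. The promoter peak of the same gene had an IDR of 0.000699. The Sec14l5 peaks lay 531.5 bp apart, and both were arrays of GTGGGTG.

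Of 8886 protein-coding genes that have sequence meeting the rule, 833 (9.37%) held a deep intronic peak. A single peak was held by 635 genes, 2 by 121, 3 by 40 and 4 or more by 37. The genes with a peak had a median of 95.1 kb of such sequence, against 15.6 kb in the others, so counts of genes follow their length. For this reason densities are given per Mb. Density was itself lower far from a TSS (2.81 per Mb at 10 to 20 kb, 0.883 beyond 100 kb), so it may still vary with gene length. Being in an intron does not show that a peak acts on that gene.

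Kalrn, which encodes a guanine nucleotide exchange factor that shapes dendritic spines, held 7 deep intronic peaks over 385.3 kb. Their IDRs, in the order of their positions, were 0.000480, 3.67e-05, 1.87e-06, 1.48e-05, 0.00892, 7.78e-08 and 2.20e-05. All 7 held GTGGGNG and none the EGR1 motif, beside 82.3% and 5.31% of all deep intronic peaks. Gse1 also held 7, with IDRs from 5.92e-07 to 0.0184, and these are also counted in the read-through gene Gm20388, which held 16. In all, 28 of the peaks lay in the body of more than 1 gene.

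The other genes with the most peaks were of several kinds. Dlgap1 and Dlgap2, scaffold proteins of the excitatory postsynaptic density, held 6 each, Dlgap1 with IDRs of 0.000499, 0.00443, 0.000318, 2.18e-05, 0.00122 and 4.23e-07. Grik4, a kainate receptor subunit, held 6 with IDRs from 4.40e-05 to 0.00529. Of these, a pair in the first intron was CpG-rich, with CpG ratios of 0.738 and 0.916, and lay 278 and 64 bp from a TSS that RefSeq alone lists. Celf4, an RNA-binding protein of excitatory neurons, held 6 with IDRs from 0.000228 to 0.0133, and Klhl29 held 6 from 4.39e-06 to 0.00745. Myo18b held 5 in 132.3 kb. None of the peaks in these genes held the EGR1 motif, which was found in 5.31% of all deep intronic peaks.

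The Galnt9 locus, studied by ChIP-qPCR, had 3 peaks in the gene. The deep intronic one (chr5:110562793-110563042) lay 18563 bp from a TSS in the first intron with an IDR of 6.95e-05, and held GTGGGCG and an AP-1 site. The others, proximal intronic, had IDRs of 5.97e-06 and 0.0138. Of the other genes with ChIP-qPCR primers, Arpp21 held 3 deep intronic peaks, Erc2 held 2 and Slc14a2 held 1. These genes were matched by name, which does not show that an amplicon lies in one of the peaks. Of the Arpp21 peaks, the one with an IDR of 0.0106 held 8 copies of GTGGGTG.

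The genes were grouped in 19 lists, and the density in each was set beside the 2.24 per Mb of all protein-coding genes, as a description. The lists differ in gene length, and its part in the densities was not tested. The Poisson intervals treat peaks as independent, although a gene can hold several, and they are not adjusted for the 19 lists. They may therefore be too narrow. The median gene with sequence meeting the rule had 18.1 kb of it over all genes. The median was 41.2 kb for potassium channels, 67.4 kb for calcium and sodium channels, 339 kb for glutamate receptors and 423 kb for synaptic adhesion genes. The highest density was that of ion channel genes of the voltage-gated calcium and sodium families. Voltage-gated calcium and sodium channel genes held 22 peaks in 14 of 33 genes, or 6.10 per Mb (exact Poisson interval 3.83 to 9.24), with 3 in Cacna1e and 2 each in Cacng3, Cacna2d4 and Cacna1i. Potassium channel genes held 26 in 12 of 53 genes, or 3.75 per Mb (2.45 to 5.49), among them 5 in Kcnj6, 3 in Kcnma1 and 2 in Kcnq3.

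Postsynaptic scaffold genes held 29 peaks in 10 of 20 genes, or 4.31 per Mb (2.89 to 6.19), 4 each in Anks1b and Dlgap4 besides those of Dlgap1 and Dlgap2. RNA-binding splicing factors held 19 in 7 of 24 genes, or 4.50 per Mb (2.71 to 7.02), with 4 in Rbfox3, 3 in Msi2 and 2 in Celf2 besides Celf4. For these 4 lists, the channel lists included, the interval lay above the value of all genes. Several of the peaks lay in the same few genes, which such an interval does not take into account.

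Receptors of the main transmitters were near that value or had wide intervals. Glutamate receptor genes held 16 peaks in 6 of 21 genes, or 2.06 per Mb (1.18 to 3.35), among them 4 in Grin2b and 2 in Grin2a besides those of Grik4. GABA receptor genes held 8 in 6 of 19 genes, or 3.46 per Mb (1.49 to 6.82), among them Gabra2, Gabrg3 and Gabbr2 with 2 each and Gabrb1 with 1. Calcium and lipid regulated kinases held 13 in 8 of 31 genes, or 2.72 per Mb, with 3 each in Prkce and Camk1d, 2 in Prkcb and 1 in Camk2b.

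Synaptic adhesion genes, which include some of the longest genes of neurons, had a low density. They held 16 peaks in 7 of 30 genes, or 0.911 per Mb (0.521 to 1.48), of which Nrxn3 held 5 in 1411 kb, Lrfn2 held 4 in 142.6 kb, Dscam 3 and Nlgn1 1. Cadherins and unclustered protocadherins held 7 in 6 of 31 genes, or 0.919 per Mb (0.370 to 1.89), among them 2 in Cdh4 and 1 each in Cdh13, Cdh22 and Pcdh1. For both lists the interval lay below the value of all genes.

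Axon guidance genes held 17 peaks in 11 of 46 genes (1.93 per Mb), with 4 in Ephb2, 3 in Sema5b, 2 in Slit1 and 1 in Ephb1. Genes of cyclic nucleotide enzymes held 10 in 7 of 36 (0.939 to 3.60 per Mb), led by Pde4d with 3 and Adcy2 with 2, and Pde7b and Pde6c held 1 each. Presynaptic release genes held 10 in 7 of 47 (1.71 per Mb), with 2 each in Rimbp2, Erc2 and Syt17 and 1 in Stx8. Neuronal transcription factors held 18 in 9 of 43 (1.86 per Mb), with 4 in Auts2, 3 in Camta1 and 2 each in Npas3 and Myt1l. Chromatin enzymes held 3 in 3 of 50 (1.18 per Mb), in Dnmt3a, Prdm16 and Prdm10. The intervals of these 5 lists held the value of all genes.

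The lists of genes that mark other cells of the cortex rest on few peaks, and their shares stand beside the 9.37% of all eligible genes. Of astrocyte marker genes 2 of 9 held a peak (Slc4a4 and Gli2), of oligodendrocyte marker genes 1 of 9 (Mbp, with an IDR of 1.12e-07), of microglia marker genes 1 of 10 (P2ry12) and of endothelial marker genes 1 of 11 (Erg). Their densities were 2.48, 2.24, 1.91 and 1.81 per Mb, with intervals that held the value of all genes. Of 10 interneuron marker genes with 1.95 Mb of such sequence, none held a peak, which allows up to 1.89 per Mb by the exact Poisson interval. This limit is below the 2.24 per Mb of all genes. The median gene of the list had 29.5 kb of such sequence, so most of it lay in the longer genes.

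**Figure D5:**
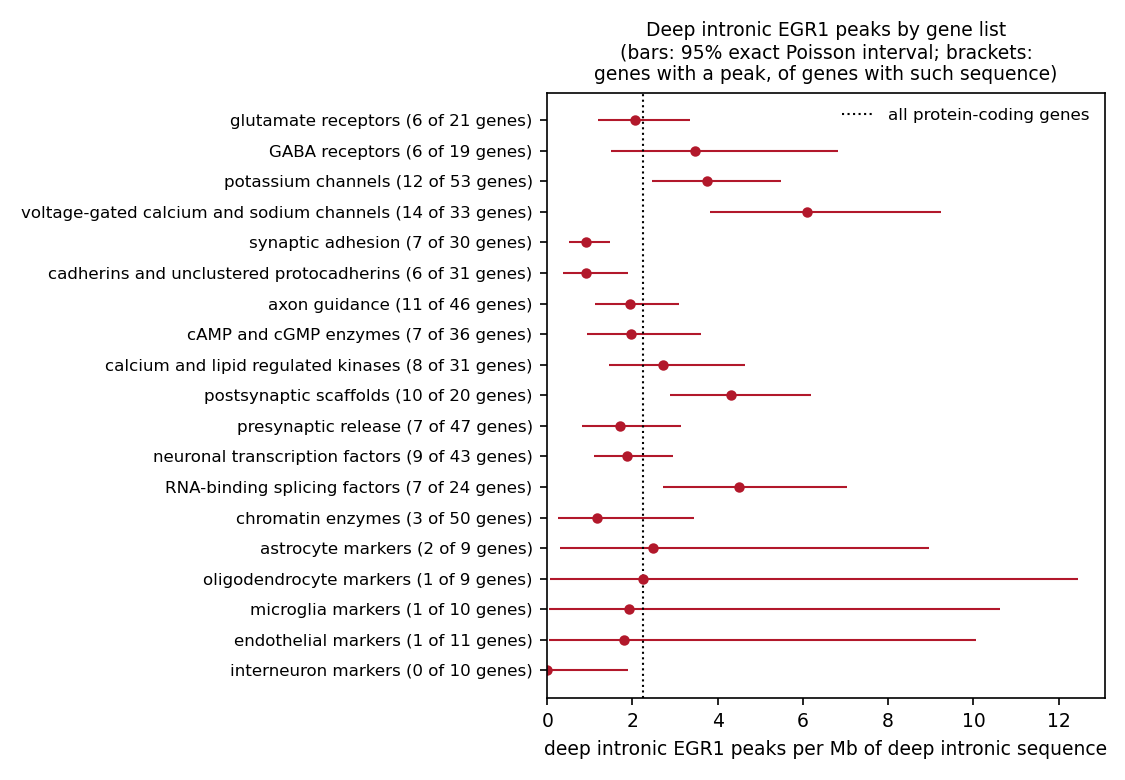
Deep intronic EGR1 peaks per Mb of deep intronic sequence (x axis) in 19 lists of genes (y axis), with the number of genes that hold a peak of those with such sequence. Bars are 95% exact Poisson intervals and the dotted line marks all protein-coding genes (2.24 per Mb). Voltage-gated calcium and sodium channel genes stand highest at 6.10 per Mb.

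Genes with a deep intronic peak more often had an EGR1 peak at their own promoter as well. A peak lay within 500 bp of a TSS of the same gene for 356 of the 833, or 42.7% (39.4 to 46.1%), against 29.7% (28.7 to 30.7%) of the 8053 other genes with such sequence. Among genes with under 50 kb of such sequence the shares were 43.1% and 29.1%, among those with 50 to 200 kb 43.6% and 31.2%, and among those with over 200 kb 41.1% (35.0 to 47.5%) and 34.7% (29.9 to 39.8%), where the intervals overlap. Within each range the genes with a peak still had more such sequence. The medians were 24.9 against 10.8 kb, 98.5 against 81.6 kb and 361 against 325 kb. The difference in shares was not tested, nor was the part of gene length or of the number of TSSs per gene.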

How the data were processed

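EGR1 ChIP-seq reads of frontal cortex were trimmed, aligned to mm10 with Bowtie and called with SPP by the authors, who compared 2 replicates by the IDR framework and kept the peaks below their threshold. The deposited values are positions and the IDR of each peak, read like a q-value (p-value scale), with no signal or counts. Such calling favours narrow peaks in sequence that reads map to uniquely.

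Positions were read as in BED files, which the sources used here do not state. Peaks on scaffolds (76) were left out. Centres were placed against GENCODE M21, and sequence came from GRCm38.p6. Classes were compared by two-sided Fisher's exact tests with Benjamini-Hochberg adjustment and a threshold of 0.05, and odds ratios carry 95% intervals on the log scale. Motifs were searched on both strands. Besides the motifs spelled out in the report these were CCANNAGNNGGC (CTCF), GTTGCCATG (RFX) and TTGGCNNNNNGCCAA (NFI), and MEF2 and SRF sites by their AT-rich consensus. The class of promoter peaks was added after seeing the data.

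The members, motifs and gene lists were chosen with earlier results of these data known. The genes named are those of the 15 peaks with the lowest IDR, the 10 with the most peaks, up to 4 for each list, the ChIP-qPCR genes, and those of the 3 peaks at each extreme of distance, CpG ratio and motif number. Katanin genes, caught by the naming pattern of the chromatin list, were taken out of it. Some items that these rules select are not reported here. The scripts were tested on simulated data and ran in Python 3.11.15 (tests by scipy 1.17.1, tables by pandas 2.3.3 and numpy 2.4.6, plots by matplotlib 3.10.9).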

Additional observations from a re-analysis of the deposited data

How the results depend on the processing

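The lower CpG-rich share of deep intronic peaks kept its direction under each alternative, and against distal intergenic peaks it passed the test in each. Against proximal intronic peaks it was lost with a limit of 20 kb (odds ratio 0.641). The EGR1 motif share against distal intergenic peaks, not called, passed the test when TSSs of protein-coding genes alone were counted (odds ratio 0.667, 5.60% against 8.17%, adjusted p = 0.0171, Fisher's exact test). The cause was not tested in either case.

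Odds ratios that did not pass the test crossed 1 in 17 cases, none of them called. For the EGR1 motif against distal intergenic peaks these were 1.04 at 20 kb, 1.05 with GCGTGGGCG alone and 1.01 with 1 base different allowed, and against proximal intronic peaks 1.03 and 1.04 under the latter settings and 1.01 with 1 peak per 100-kb bin. For an IDR of 0.001 or less against distal intergenic peaks they were 0.966 at 5 kb, 0.954 with TSSs of protein-coding genes and 0.988 with 1 peak per bin. Against proximal intronic peaks they were 1.01 with 1 peak per bin, 1.04 at an IDR of 0.0001, 1.14 at 0.01 and 1.00 in peaks masked for under 50%. For AP-1 they were 1.05 with 1 peak per bin and 1.22 with ATGANTCA against distal intergenic peaks, and 0.905 at 20 kb and 0.983 without peaks within 10 kb of a RefSeq TSS against proximal intronic peaks. The RefSeq and masking settings were chosen after seeing the data.

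The number of deep intronic peaks was 665 at 20 kb and 539 with an IDR of 0.001 or less, and their genes numbered 491 and 445. The other counts stayed within 1.5 times of the reported ones, 965 peaks being left when RefSeq TSSs were counted too. No paired analysis was possible because both replicates are merged in 1 list, which also left no replicate to leave out. Depth limits the list to an unknown degree.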

Other observations

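The strand of the core word was not even. Of 539 deep intronic peaks with exactly 1 GTGGGNG and genes on 1 strand, the word lay on the strand of the gene in 316, or 58.6% (95% Wilson interval 54.4 to 62.7%). In the windows 5 kb beside the peaks it did so in 182, or 50.1% (45.0 to 55.3%). This was chosen after seeing the data and was not tested.

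Chromosomes differed in density. The X chromosome held 6 deep intronic peaks in 26.9 Mb of such sequence, or 0.223 per Mb. The mice were male, and the cause of the low density was not tested. Among autosomes the density ran from 1.29 per Mb on chromosome 3 to 3.48 on chromosome 17.

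The EGR1 motif occurred more than once in few deep intronic peaks. Cers6, which encodes a ceramide synthase, Slc39a11, a zinc transporter gene, and Apba1, a presynaptic adaptor gene, each held 2 copies in a peak, with IDRs of 8.48e-06, 0.0104 and 0.0117. A single deep intronic peak had its centre in an exon of a noncoding gene.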
